A study of Homo sapiens with 6 samples.

Results

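Genes that bring fatty acids into the cell, carry them and activate them were followed in OVCAR5 cells, a human ovarian carcinoma line. The 10 genes were chosen by name, as a pathway, out of 62656 genes in the tables: 5 long-chain acyl-CoA synthetases (ACSL1, ACSL3, ACSL4, ACSL5 and ACSL6), 2 fatty acid transport proteins (SLC27A2 and SLC27A4), the scavenger receptor CD36, and 2 fatty acid-binding proteins (FABP4 and FABP5). RNA was sequenced from cells kept for 3 days with 100 nM NTX301, which the series title calls a DNA hypomethylating agent, or with its solvent, dimethyl sulfoxide (DMSO). Each treatment had 3 libraries of this 1 cell line, which all grew in the same serum-containing medium, and the labels do not say whether they came from separate cultures, so a p-value here reflects variation among these libraries and nothing wider. In bulk RNA, fewer cells of a type and less RNA per cell cannot be told apart.

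Free fatty acids reach a cell from serum or from neighbouring adipocytes, and CD36 and the SLC27 proteins help them across the plasma membrane. In the cytosol, fatty acid-binding proteins carry them to membranes, to the nucleus and to lipid droplets. Before a fatty acid can be stored, built into phospholipid or burned, it must be joined to coenzyme A, which is the reaction of the ACSL enzymes. SLC27 proteins catalyse this reaction too and prefer very long chains. ACSL3 sits on the endoplasmic reticulum and on growing lipid droplets, whereas ACSL4 prefers arachidonic acid and other polyunsaturated chains and is known as a driver of ferroptosis, a cell death by lipid peroxidation. In ovarian cancer, FABP4 and CD36 are studied for their part in the growth of tumour cells next to omental fat.

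NTX301 is aimed at DNA methylation, and the promoters of the genes differ widely in CpG dinucleotides, the sites where DNA is methylated, so the sequences upstream of the genes with 1 annotated start are shown first. RefSeq windows (GRCh38.p14, 250 bases before to 50 bases after a start) matched 8 of the 10 genes, and FABP4 and FABP5 did not match. ACSL3, ACSL4 and SLC27A2 are printed because they fell with NTX301, and SLC27A4 is printed as the transport protein that did not fall. Each sequence runs 5′ to 3′ on the gene's own strand, ends before the first base of any GENCODE 29 exon, and has CpG in capitals.
ACSL3 (chr2:222860786-222860933, + strand): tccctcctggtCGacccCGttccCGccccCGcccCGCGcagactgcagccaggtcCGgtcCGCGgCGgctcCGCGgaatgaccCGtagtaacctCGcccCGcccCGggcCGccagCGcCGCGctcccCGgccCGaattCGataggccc
ACSL4 (chrX:109733404-109733507, - strand): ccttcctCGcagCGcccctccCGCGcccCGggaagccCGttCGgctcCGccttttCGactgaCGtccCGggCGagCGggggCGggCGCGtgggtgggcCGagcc
SLC27A2 (chr15:50181946-50182195, + strand): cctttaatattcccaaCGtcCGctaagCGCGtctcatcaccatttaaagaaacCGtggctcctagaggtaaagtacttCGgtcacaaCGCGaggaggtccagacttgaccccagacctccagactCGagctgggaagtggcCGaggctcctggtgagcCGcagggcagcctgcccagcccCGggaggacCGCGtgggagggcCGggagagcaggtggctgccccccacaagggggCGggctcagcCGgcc
SLC27A4 (chr9:128340277-128340526, + strand): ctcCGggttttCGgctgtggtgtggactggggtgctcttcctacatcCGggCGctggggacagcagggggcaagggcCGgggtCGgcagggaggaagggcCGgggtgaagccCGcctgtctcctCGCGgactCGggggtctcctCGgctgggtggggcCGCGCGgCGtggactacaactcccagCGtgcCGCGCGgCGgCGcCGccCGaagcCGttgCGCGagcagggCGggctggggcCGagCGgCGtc

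Over the whole 300-base windows, ACSL4 held 51 CpG, ACSL3 41, SLC27A4 38 and SLC27A2 23, against a median of 14 over the 35116 windows of all genes. Fewer CpG were found in 99.0% of all windows than in that of ACSL4, and in 93.3%, 90.1% and 64.2% than in those of ACSL3, SLC27A4 and SLC27A2. CD36 lies at the other end, with 1 to 3 CpG in each of its 6 windows, and both windows of ACSL5 held 4 or 5. ACSL1 and ACSL6 have starts of both kinds, with 4 to 47 CpG in the 5 windows of ACSL1 and 2 to 38 in the 7 of ACSL6. Short motifs, 6 in all, were searched on both strands, and none of them contains another. They were the GC box GGGCGG, the CCAAT box, the E-box CACGTG and the TATA box TATAAA. The core AGGTCA bound by nuclear receptors and the core TCACNCCAC of a sterol regulatory element were searched as well. The GC box, present in 45.0% of all windows, occurred 3 times each in those of ACSL3 and ACSL4, 2 times in that of SLC27A4 and 1 time in that of SLC27A2. CCAAT, present in 34.6% of windows, occurred 1 time in that of ACSL3. The E-box, the TATA box, the nuclear receptor core and the sterol element core, found in 7.26%, 11.5%, 13.8% and 1.13% of all windows, were not in these 4. Among the windows of the other genes, the sterol element core occurred in a window of ACSL1 and a window of ACSL6. The nuclear receptor core occurred in windows of ACSL5 and ACSL6, and the TATA box in windows of ACSL1 and CD36. DNA methylation itself was not analysed here, and no link between CpG content and response was tested.

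Depth and identity of the libraries bear on all values. The libraries held 22131175 to 25743732 estimated counts, and the first principal component, with 79.9% of the variance, separated the treatments, while DMSO replicate 3 stood apart on the second (6.34%). All 6 epithelial markers listed (EPCAM, CDH1, KRT7, KRT8, KRT18 and KRT19) were expressed, with a sum of 3966 to 4257 CPM with DMSO and 2110 to 2235 CPM with NTX301. Most of this sum was KRT8 and KRT18, at 2251 and 1469 CPM with DMSO, and of the 6 genes 4 fell (EPCAM, KRT8, KRT18 and KRT19) and 2 rose (KRT7, from 97.8 to 233.8 CPM, and CDH1, from 9.58 to 11.9 CPM). Of 5 markers of serous ovarian carcinoma, PAX8 was at 8.65 ± 1.17 and 10.03 ± 0.604 CPM, and was not called, MUC16, at 3.55 ± 0.827 and 0.710 ± 0.237 CPM, fell by 2.32 on the log2 scale (edgeR adjusted p = 7.04e-06), and WT1, SOX17 and EMX2 were at or near 0. FABP4 and CD36 are textbook markers of fat cells, macrophages and capillary endothelium, so 6 other markers of each were read. Of the adipocyte list, ADIPOQ, LEP, CIDEA and CIDEC had group means of at most 0.198 CPM, PLIN1 fell from 0.571 to 0.250 CPM, and LIPE, at 5.41 and 6.41 CPM, was not called (sum 5.25 to 7.27 CPM with DMSO and 6.25 to 7.99 CPM with NTX301). Of the macrophage list, CD14 and CD68, which epithelial cells also express, were tested and rose (sum 37.7 to 44.8 against 65.0 to 67.1 CPM). PTPRC and CD163 had at most 0.0912 CPM as group means, while CSF1R had 2 counts in each DMSO library and 9 to 17 in the NTX301 libraries, and MARCO had 1 to 2 and 9 to 17. These 2 genes did not overlap between the groups, which also held for 73.7% of all tested genes. They were below the count filter, so they were not tested. Of the endothelial list, CDH5 (1.13 to 2.47 CPM) and VWF (0.267 to 0.529 CPM) rose, PECAM1 was at 3.71 and 3.11 CPM and not called, and KDR, TEK and EMCN had at most 0.237 CPM (sum 4.87 to 5.44 against 6.22 to 6.73 CPM). VWF, with 7, 4 and 7 counts against 18, 11 and 11, passed the count filter only through its NTX301 libraries. Its edgeR adjusted p of 0.0489 was just under the threshold of 0.05. KDR (0, 0 and 1 counts against 4, 2 and 2) and TEK (0, 2 and 0 against 4, 9 and 5) were not tested and did not overlap between the groups either. The part of these markers in the values of FABP4 and CD36 was not tested.

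Of the 10 genes, 4 fell (FABP4, ACSL3, SLC27A2 and ACSL4), 3 rose (FABP5, ACSL6 and SLC27A4) and 3 were not called (ACSL1, ACSL5 and CD36) by edgeR's quasi-likelihood test with a Benjamini-Hochberg adjusted p under 0.05 over 19029 genes. Changes were common in these libraries: 70.5% of all tested genes were called, 35.4% as higher and 35.1% as lower with NTX301. At least 2-fold lower were FABP4 and ACSL3, beside 8.58% of all tested genes, and at least 2-fold higher was FABP5, beside 13.4%. The share of the 10 genes called is therefore near that of any genes, and the result lies in which genes moved and how far. The calls of FABP4, ACSL3, ACSL4, SLC27A2 and FABP5 held under all 14 other settings and left-out libraries that were run, while those of ACSL6 and SLC27A4 each held under 7 of 14. The median log2 fold change of the 10 genes was -0.01, beside a median of -0.0005 over all tested genes.

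**Figure D1:**
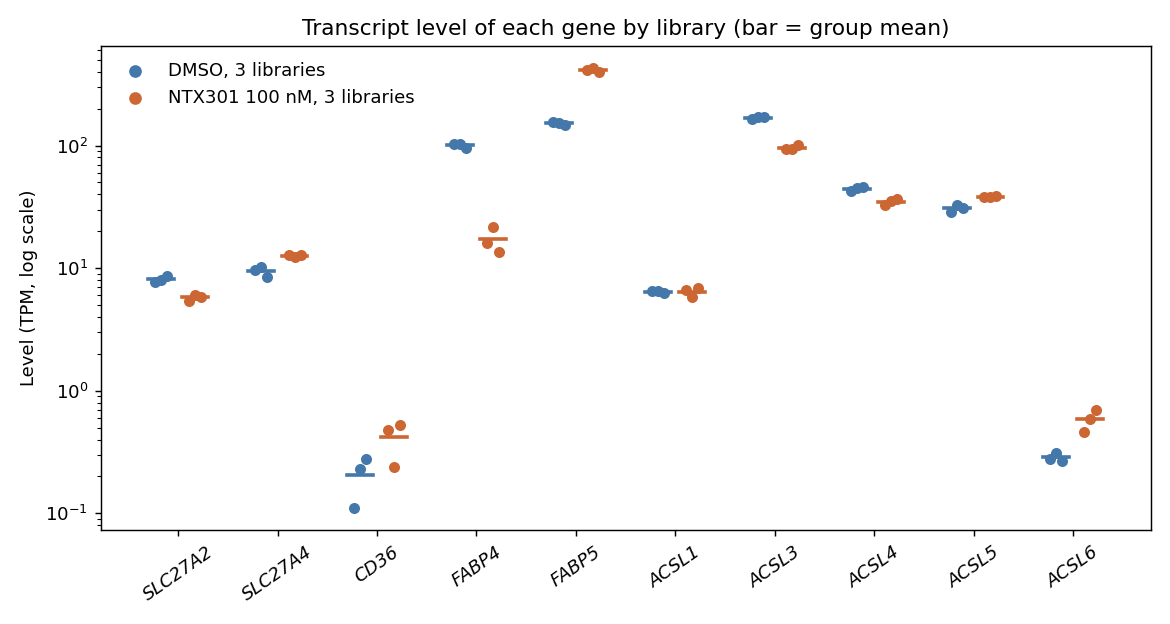
Level of the 10 genes in TPM (log scale) in each of 3 DMSO and 3 NTX301 libraries, with bars at the group means. FABP4 drops from about 100.4 to 17.2 TPM and FABP5 climbs from 152.9 to 414 TPM, while CD36 and ACSL6 lie below 1 TPM in every library.

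Levels per transcript length, in TPM (transcripts scaled to a common library total), put ACSL3, FABP5 and FABP4 far above the rest in DMSO. ACSL3 led with 168.9 ± 3.27 TPM (mean ± SD, n = 3, as for all group values below), followed by FABP5 with 152.9 ± 4.55, FABP4 with 100.4 ± 4.96, ACSL4 with 44.5 ± 1.65 and ACSL5 with 30.7 ± 2.09 TPM. SLC27A4 with 9.42 ± 0.856, SLC27A2 with 8.10 ± 0.490 and ACSL1 with 6.41 ± 0.116 TPM were lower, and ACSL6 with 0.287 ± 0.0208 and CD36 with 0.207 ± 0.0874 TPM were close to silent. In DMSO the libraries of neighbours in this order overlapped only for SLC27A4 and SLC27A2 and for ACSL6 and CD36. With NTX301 the order became FABP5, ACSL3, ACSL5, ACSL4, FABP4, SLC27A4, ACSL1, SLC27A2, ACSL6 and CD36, and only ACSL1 and SLC27A2, and ACSL6 and CD36, overlapped. FABP4 thus dropped below ACSL5 and ACSL4, and ACSL5 passed ACSL4.

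The fatty acid-binding proteins moved in opposite directions. FABP4, the adipocyte type, which binds long-chain fatty acids and is secreted by fat cells, had 54.0, 52.5 and 47.1 CPM (counts scaled to library size with TMM factors) in the DMSO libraries and 7.22, 9.76 and 5.79 CPM in the NTX301 libraries. All 3 DMSO libraries lay far above all 3 NTX301 libraries, and the NTX301 libraries differed among themselves more, in proportion, than the DMSO libraries did. FABP4 (ENSG00000170323.9, chromosome 8, 81478419 to 81483263 in GRCh38) was 6.75-fold lower with NTX301 (log2 fold change -2.76 ± 0.12, estimate ± SE, edgeR adjusted p = 2.7e-09). Its log2 fold change ranked 37th from the lowest of the 19029 tested genes. FABP4 has 1 transcript in the tables and whole counts in every library.

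FABP5, the epidermal type, which carries fatty acids and retinoic acid and is found in many carcinomas, had 59.4, 56.7 and 53.5 CPM with DMSO and 132.4, 139.1 and 123.4 CPM with NTX301. Every NTX301 library was above every DMSO library, and neither group was widely spread. FABP5 (ENSG00000164687.11, chromosome 8, 81280363 to 81284777) was 2.33-fold higher (log2 1.22 ± 0.05, edgeR adjusted p = 2.4e-09). FABP5 has 15 processed copies in the tables, of which 7 had any count, and reads that match several copies are divided by an estimate. The copies held 6.47% to 10.4% of the counts of FABP5 and its copies together, nearly all in FABP5P7. The sum over FABP5 and its copies was 2.35-fold higher with NTX301, close to the 2.33-fold of FABP5 alone. In TPM, FABP5 exceeded FABP4 by 1.52 ± 0.0351 times in the DMSO libraries and by 24.9 ± 4.88 times in the NTX301 libraries, with 25.4, 19.8 and 29.5 times in replicates 1, 2 and 3.

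FABP4 and FABP5 are neighbours, 193.6 kb apart, in a cluster with PMP2, FABP9 and FABP12, which also encode fatty acid-binding proteins. FABP9 and FABP12 had 0 counts in all 6 libraries and PMP2 had 2, so FABP4 and FABP5 were the expressed genes of the cluster. All genes within 600 kb of FABP4 with at least 60 counts over the libraries were then listed, a rule chosen after the values of FABP4 and FABP5 were seen. PAG1, a membrane adaptor of Src kinases that lies beyond FABP5, rose by 0.94 ± 0.06 on the log2 scale, and IMPA1, an inositol monophosphatase that lies beyond FABP4, rose by 0.47 ± 0.05. ZFAND1, a zinc finger gene, was at 58.4 ± 3.37 CPM with DMSO and 60.1 ± 3.46 CPM with NTX301 and was not called. CHMP4C, of the membrane-cutting ESCRT machinery, fell by 0.20 ± 0.07, and SNX16, a sorting nexin, rose by 0.21 ± 0.07. Of the noncoding genes, ENSG00000272425, a lincRNA beside FABP5, fell by 2.43 ± 0.41 from 0.787 CPM, and FTH1P11 and ENSG00000280193 were not called. LINC02235 fell by 0.96 ± 0.40 with an edgeR adjusted p of 0.0486, just past the threshold. It had 19, 18 and 19 counts with DMSO and 13, 15 and 4 with NTX301. LNMICC, a long noncoding RNA that overlaps the start of FABP5 on the opposite strand, went from 0.998 ± 0.0915 to 0.316 ± 0.0673 CPM, a fall (log2 -1.66 ± 0.30, edgeR adjusted p = 0.000396). No source used here states whether strand was used in counting, so LNMICC and FABP5 cannot be told apart where they overlap. LNMICC had 92 counts in all against 13862 of FABP5.

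**Figure D2:**
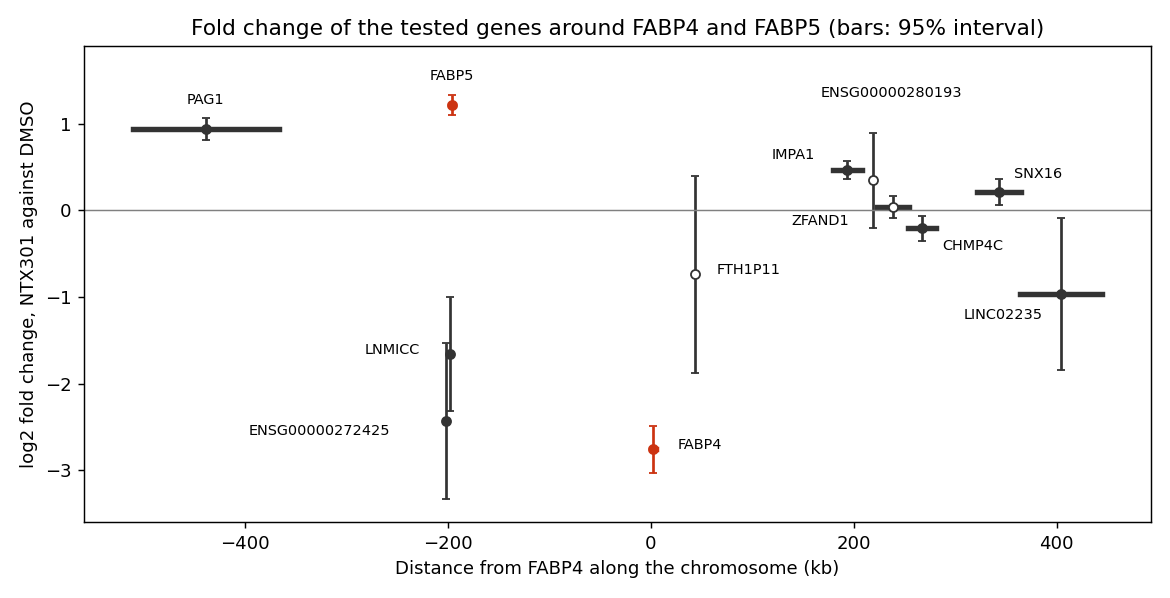
Log2 fold change (NTX301 against DMSO, with 95% interval) of the tested genes within 600 kb of FABP4, against distance from FABP4 in kb; thick lines span the genes, filled points passed the test and open points did not. FABP5 at 1.22 and FABP4 at -2.76 lie on opposite sides of 0, and the protein-coding genes around them lie between -0.20 and 0.94.

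Of the uptake genes at the membrane, SLC27A2 fell. SLC27A2, also called FATP2, is a transporter and very long-chain acyl-CoA synthetase known from liver and kidney. It had 11.1, 11.2 and 11.9 CPM with DMSO and 6.65, 7.51 and 6.81 CPM with NTX301, with no overlap between the groups. The fall was 1.63-fold (log2 -0.70 ± 0.09, edgeR adjusted p = 2.08e-05). SLC27A4, or FATP4, the main transporter of this family in the gut and skin, had 18.7, 19.5 and 15.9 CPM with DMSO and 20.8, 20.1 and 20.5 CPM with NTX301. The groups did not overlap, and DMSO replicate 3 was the lowest library. SLC27A4 rose by 0.18 ± 0.07 on the log2 scale with an edgeR adjusted p of 0.0492, just past the threshold, and by 0.10 without DMSO replicate 3 (adjusted p = 0.172). Over the alternatives its adjusted p lay between 0.000544 and 0.172, and the call was absent in DESeq2 (0.105), with no low count filter (0.131), and with any library but DMSO replicate 2 left out (0.057 to 0.172).

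CD36, the scavenger receptor that takes up fatty acids and oxidised lipoproteins, was at the limit of detection. Its counts were 3, 10 and 10 in the DMSO libraries and 13, 8 and 14 in the NTX301 libraries, and the groups overlapped. No difference was detectable at this depth, with a log2 fold change of 0.45 and a 95% interval of -0.57 to 1.46 (edgeR adjusted p = 0.406), which leaves room for a rise of 2-fold as well as for a fall. CD36 reached the count filter in only 1 DMSO and 2 NTX301 libraries, so its level rests on 58 counts in all.

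**Figure D3:**
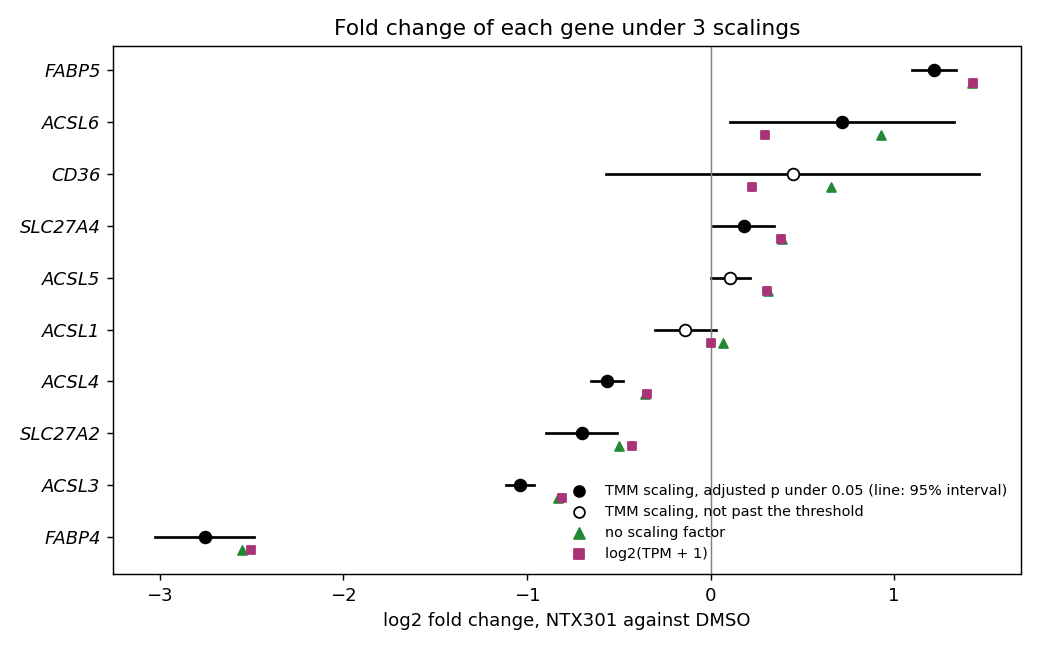
Log2 fold change of the 10 genes, NTX301 against DMSO, with 95% intervals after TMM scaling, and the same without a scaling factor (triangles) and on log2(TPM + 1) (squares). FABP4, ACSL3, SLC27A2 and ACSL4 lie below 0 and FABP5 above 0 under each of the 3 scalings, whereas ACSL1 moves across 0.

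Among the acyl-CoA synthetases, ACSL3 carried the largest change in amount. ACSL3 (ENSG00000123983.15, chromosome 2, 222860934 to 222944639), which activates fatty acids for lipid droplets and phosphatidylcholine, had 367, 368 and 366 CPM with DMSO and 177.9, 178.0 and 181.1 CPM with NTX301. The groups were far apart and each was tight. ACSL3 was 2.05-fold lower (log2 -1.04 ± 0.03, edgeR adjusted p = 3.36e-10). ACSL4 (ENSG00000068366.21, chromosome X, 109624244 to 109733403), which activates arachidonic acid, had 42.6, 45.3 and 45.6 TPM with DMSO and 32.9, 35.2 and 36.3 TPM with NTX301, again without overlap. In scaled counts ACSL4 was 1.48-fold lower (log2 -0.56 ± 0.04, edgeR adjusted p = 1.34e-07).

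ACSL5, a form found on mitochondria and endoplasmic reticulum and abundant in the gut, had 58.0, 64.7 and 60.5 CPM with DMSO and 65.9, 67.2 and 64.3 CPM with NTX301. The groups overlapped, since DMSO replicate 2 lay above NTX301 replicate 3, and the gene was not past the threshold (log2 0.11, 95% interval 0.0031 to 0.21, edgeR adjusted p = 0.0621). Without a scaling factor ACSL5 was called higher (log2 0.31, adjusted p = 0.000112), and the alternatives gave adjusted p-values between 0.000112 and 0.25. ACSL5 overlaps ZDHHC6 on the opposite strand, a gene with 4061 counts in all against 9168 of ACSL5, so some reads of the 2 genes may be mixed. ACSL1, the form best known from fat, liver and heart, had 13.6, 13.5 and 13.4 CPM with DMSO and 12.6, 11.4 and 12.8 CPM with NTX301. These values did not overlap, yet ACSL1 was not past the threshold (log2 -0.14, 95% interval -0.30 to 0.03, edgeR adjusted p = 0.125), and its sign turned without a scaling factor (0.069, adjusted p = 0.442).

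ACSL6, a form known from brain and testis, had 16, 15 and 9 counts with DMSO and 21, 25 and 27 with NTX301. Its NTX301 libraries all lay above its DMSO libraries, at 0.847 to 1.05 against 0.434 to 0.680 CPM. It rose by 0.72 ± 0.28 on the log2 scale (edgeR adjusted p = 0.0366). It was not called in DESeq2 (adjusted p = 0.164), with no low count filter (0.0908) or with a replicate block (0.0643). Nor was it called without DMSO replicate 2 or 3 or NTX301 replicate 2 or 3 (0.0607, 0.115, 0.0782 and 0.101 in this order). The alternatives spanned adjusted p-values of 0.00927 to 0.164. ACSL6 reached the count filter in 2 of 3 DMSO and 3 of 3 NTX301 libraries. Non-overlap of the groups was seen in 8 of the 10 genes and in 73.7% of all tested genes.

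The pool of ACSL transcripts became smaller and changed in make-up. The 5 genes together summed to 242.9, 255.3 and 254.1 TPM in the DMSO libraries and 171.6, 173.7 and 183.3 TPM in the NTX301 libraries, so the NTX301 mean was 70.3% of the DMSO mean. The size of this fall depends on scaling between libraries, and TPM use no TMM factor. ACSL3, for example, changed by -1.04 on the log2 scale after TMM scaling and by -0.807 on log2(TPM + 1). ACSL3 supplied 67.3% ± 0.571 of this pool with DMSO and 54.5% ± 0.485 with NTX301, 12.8 percentage points less. ACSL5 supplied 12.2% ± 0.517 and 21.7% ± 0.531, ACSL4 17.7% ± 0.203 and 19.8% ± 0.561, and ACSL1 2.56% ± 0.0974 and 3.65% ± 0.265. ACSL6 stayed below 0.4% in every library. Shares do not depend on scaling between libraries, and for each of the 5 genes the groups did not overlap. The shares of a library are parts of 1 sum, so they are tied and are not 5 separate results. Thus the share of ACSL4 rose although its own level fell from 44.5 to 34.8 TPM. That of ACSL1 rose although its level was 6.41 TPM with DMSO and 6.44 TPM with NTX301. An exact two-sided permutation test gave p = 0.1 for each share (0.1 adjusted over the 5 genes), which is the smallest p that 3 against 3 libraries allow, so this design cannot reach 0.05. ACSL3 exceeded ACSL4 in TPM by 3.88, 3.77 and 3.75 times in the DMSO libraries and by 2.86, 2.66 and 2.77 times in the NTX301 libraries. The log2 ratio was lower in every NTX301 library than in all DMSO libraries (1.93 ± 0.026 against 1.47 ± 0.051, difference -0.46, exact permutation p = 0.1).

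**Figure D4:**
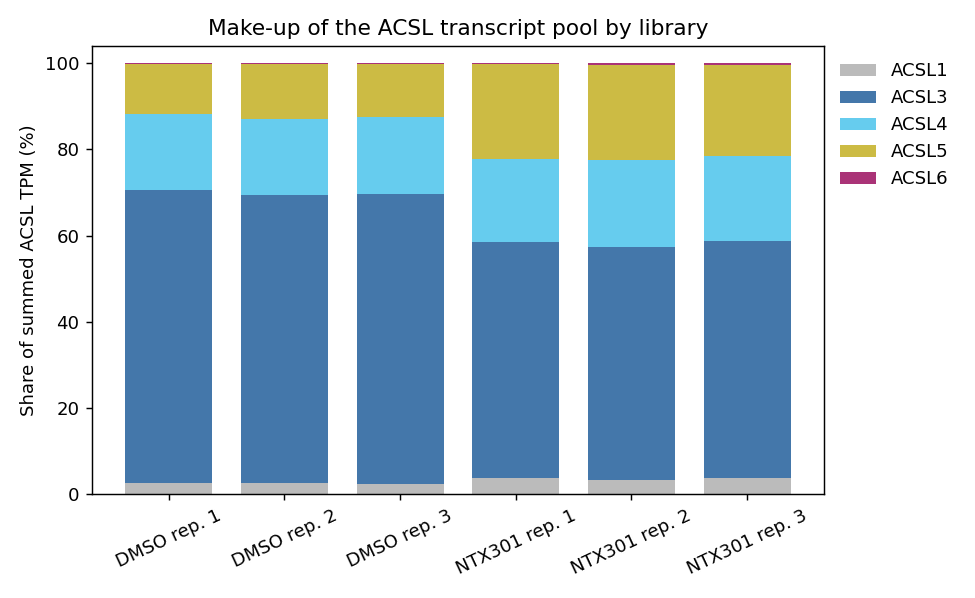
Share of the summed TPM of the 5 ACSL genes held by each gene, in percent, in the 3 DMSO and 3 NTX301 libraries. ACSL3 takes 66.9% to 68.0% of the pool with DMSO and 54.0% to 54.9% with NTX301, and ACSL5 takes about 12.2% and 21.7%; ACSL6 is too small to be seen.

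Genes that work with these 10 were counted in 7 lists, described by their counts beside the background of 35.4% higher and 35.1% lower. Of 13 other transport and binding proteins, 5 were tested, and 3 rose and 2 fell (median log2 fold change 0.35). MFSD2A, a transporter of lysophosphatidylcholine that carries polyunsaturated chains, went from 4.16 ± 0.229 to 13.6 ± 0.704 CPM, a rise of 1.70 ± 0.09 on the log2 scale. SLC27A1, the transport protein of muscle and fat, fell by 0.90 ± 0.07, and SLC27A3 rose by 0.35 ± 0.10. Of 10 tested other acyl-CoA synthetases, 6 fell and 1 rose (median log2 fold change -0.64, but -0.433 without a scaling factor and -0.292 on log2(TPM + 1)). ACSS2, which makes acetyl-CoA from acetate, went from 49.0 ± 0.821 to 20.6 ± 1.05 CPM. The medium-chain synthetases ACSM3 and ACSM2A fell by 0.98 ± 0.05 and 1.38 ± 0.25, and reads of ACSM2A are uncertain because ACSM2B is a near copy.

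Of 15 tested acyl-CoA binding proteins and thioesterases, which hold or cleave the products of the ACSL enzymes, 9 fell and 4 rose (median -0.25). Without a scaling factor, and on log2(TPM + 1), 6 fell and 6 rose, so the excess of falls depends on scaling. ACBD4, an acyl-CoA binding protein of peroxisomes, fell by 1.40 ± 0.08 on the log2 scale, and ACBD7, a small relative, rose by 1.54 ± 0.10. ACOT1, a cytosolic thioesterase that is a near copy of ACOT2 and so uncertain, fell by 1.31 ± 0.08. Of 15 tested uptake partners and lipases, 8 fell and 5 rose (median -0.17). LRP1, a large endocytic receptor, went from 138.3 ± 5.64 to 52.8 ± 1.47 CPM, while THBS1, whose product thrombospondin 1 is a ligand of CD36, rose from 180.7 ± 9.35 to 381 ± 12.3 CPM. Lipoprotein lipase (LPL), chosen after its values were seen, had at most 0.118 CPM as a group mean.

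Of 17 tested genes of lipid droplet storage and release, where ACSL3 also acts, 7 fell and 4 rose (median -0.10). PLIN4, a droplet coat protein, went from 35.6 ± 0.391 to 8.92 ± 0.334 CPM, 3.99-fold lower. G0S2, the inhibitor of the triglyceride lipase PNPLA2, went from 2.28 ± 0.139 to 16.8 ± 0.975 CPM, 7.36-fold higher, and DGAT2, which makes triglyceride, rose by 1.07 ± 0.12 on the log2 scale. PLIN2, the common droplet coat protein of most cells and chosen after its values were seen, had 0 to 5 counts in each library. Of 13 tested partners of ACSL4 in polyunsaturated phospholipid remodelling and ferroptosis, 6 fell and 2 rose (median -0.60, but -0.389 without a scaling factor and -0.105 on log2(TPM + 1)). The 2 that rose, named after their values were seen, were AIFM2, a suppressor of ferroptosis (24.6 to 33.8 CPM), and ALOXE3, an epidermal lipoxygenase (0.114 to 1.33 CPM). ALOXE3 had 4, 3 and 1 counts with DMSO and 32, 31 and 38 with NTX301. It therefore passed the count filter only through its NTX301 libraries. LPCAT3, which puts arachidonoyl-CoA into phospholipid, went from 126.8 ± 8.27 to 54.7 ± 0.487 CPM and AGPAT3, another acyltransferase, from 96.9 ± 2.35 to 35.9 ± 1.89 CPM. GPX4, the peroxidase that protects membranes from ferroptosis, also fell, from 347 ± 17.7 to 141.7 ± 6.18 CPM.

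Of 15 tested transcription regulators that are known to act on these genes, 12 fell and 2 rose (median -0.64, -0.434 without a scaling factor and -0.42 on log2(TPM + 1), against a background of 35.1% of genes lower). SREBF1 and SREBF2, the drivers of lipid synthesis, fell by 2.21 ± 0.04 and 1.69 ± 0.04 on the log2 scale. NR1H4, the bile acid receptor FXR, went from 2.51 ± 0.190 to 0.304 ± 0.237 CPM. PPARG, the receptor that induces FABP4 in fat cells and chosen here after its values were seen, went from 81.5 to 61.6 CPM as group means (log2 -0.41, edgeR adjusted p = 1.99e-05). In TPM, which use no TMM factor, PPARG fell less, from 80.1 ± 3.53 with DMSO to 72.8 ± 2.30 with NTX301. Whether any of these regulators bears on FABP4 or the other genes was not tested. Without a scaling factor the median over all tested genes was 0.21, and the medians of the 10 genes, of the uptake partners and of the droplet list were positive (0.191, 0.035 and 0.111). On log2(TPM + 1) these 3 medians were positive too (0.115, 0.132 and 0.057). So was that of the acyl-CoA binding proteins and thioesterases (0.063). Under either setting, each of these positive medians lay below the median over all tested genes, which was 0.169 on log2(TPM + 1).

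**Figure D5:**
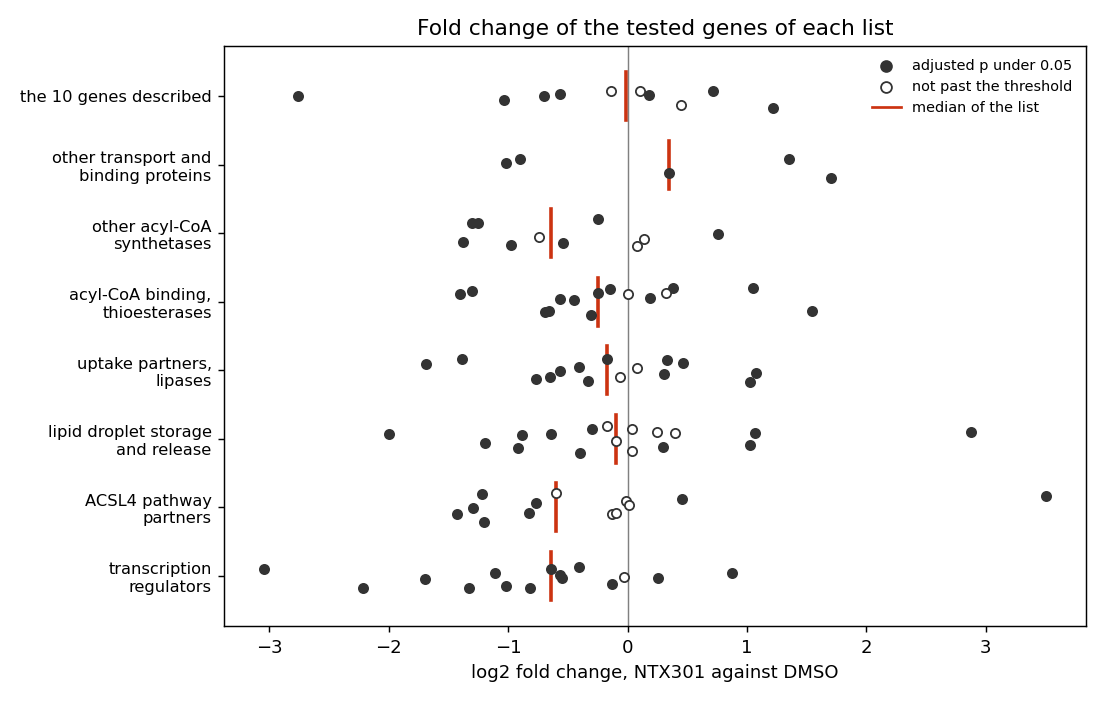
Log2 fold change, NTX301 against DMSO, of the tested genes of the 10 described and of 7 lists of related genes; filled points passed the test, open points did not, and the red line is the list's median. Transcription regulators lie mostly below 0 (12 of 15 fell), whereas the 10 genes spread on both sides.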

How the data were processed

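Total RNA of OVCAR5 cells was made into libraries with a NEBNext Ultra II kit, per the labels' protocols. The authors deposited 1 gene table per library in the columns of RSEM, per the file headers. Among the deposited values, expected counts estimate how many reads came from a gene and are not normalized, and TPM values were corrected for gene length and library total by the authors. The deposited length and effective length columns are bases per gene and, as other values, were used for a check only. The sources used here name no tool version, genome build, annotation release or strand setting.

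Entries of pseudoautosomal genes on chromosome Y (47) were added to their X copies. Names came from a table matched by stable identifier (62639 of 62656 genes), and positions from GENCODE 29 (GRCh38). Expected counts were rounded and tested with edgeR 4.0.16 in R 4.3.3: filterByExpr kept 19029 genes, TMM gave factors of 0.9206 to 1.0834, and glmQLFTest compared all 6 libraries by treatment. CPM uses these scaled totals. Standard errors follow from each F statistic and its fold change. The script was tested on simulated data. Alternatives used DESeq2 1.42.0, limma 3.58.1 (voom, and log2 of TPM with a pseudocount of 1 or 0.1), other scalings, no filter, a replicate block and each library left out.

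The 10 genes and the lists were chosen with earlier results of these data known. All 10 are named, and from each list up to 3 called genes averaging at least 1 CPM with the largest absolute log2 fold change. One gene that this rule names is not reported here. Counting error limits genes with few counts, such as CD36 and ACSL6. ENSG00000272425, LNMICC, LINC02235, NR1H4 and PLIN1 passed the count filter through their DMSO libraries, where they were higher. ALOXE3 and VWF passed it through their NTX301 libraries, where they were higher. ACSL6 reached it in 2 of 3 DMSO and 3 of 3 NTX301 libraries, so ACSL6 too passed only with NTX301 libraries, where it was higher.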

Additional observations from a re-analysis of the deposited data

How the results depend on the processing

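The 4 falls among the 10 genes were called under all 14 alternatives. The count of rises, 3, was 4 without a scaling factor and on log2(TPM + 1) and log2(TPM + 0.1), where ACSL5 was called too. It was 1 with no low count filter, 1 in DESeq2 and 1 to 3 with a library left out (1 without DMSO replicate 3 or NTX301 replicate 2 or 3). FABP5 was called in each, and ACSL5, not called in the main fit, was called under 5 of the 14. ACSL1 reversed without a scaling factor (log2 0.069) and on log2(TPM + 1) and log2(TPM + 0.1) (0.003 and 0.002). Library totals alone gave 8793 higher and 4732 lower genes (65.01% higher, against 50.25% with TMM), and on log2(TPM + 1) and log2(TPM + 0.1) 4318 and 4297 fell, against 6677. Among other acyl-CoA synthetases 2 rose, against 1, without a scaling factor and on both TPM scales, and 4 partners of ACSL4 rose, against 2, without a scaling factor. On both TPM scales 8 uptake partners rose, against 5, and 7 droplet genes, against 4, while 7 uptake partners and 5 to 6 droplet genes fell. Without a scaling factor, 7 uptake partners rose and 7 fell, and 6 droplet genes rose and 6 fell. Of the acyl-CoA binding proteins and thioesterases, 6 rose and 6 fell without a scaling factor and on both TPM scales. Of the other transport and binding proteins 1 fell, against 2, without a scaling factor and in DESeq2, and 1 to 2 with a library left out (2 only without DMSO replicate 2 or NTX301 replicate 2). Of the transcription regulators 1 to 2 rose with a library left out (1 without DMSO replicate 1 or NTX301 replicate 3). These lists are small, so 1 gene moves a count by a large factor.

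Same-numbered libraries of the treatments correlated in their deviations by 0.08, -0.028 and 0.043, so the numbers were not taken to pair them. With a replicate block, 6837 genes rose and 6749 fell, and 3 and 4 of the 10 genes, where ACSL5 was called (edgeR adjusted p = 0.0329) and ACSL6 was not (0.0643). With a library left out, the change in the ACSL3 share of the ACSL pool lay between -13.05 and -12.49 percentage points. Such shifts of a mean of 3 values are small by construction and do not measure stability, nor does recomputing the shares from expected counts per effective length, from which TPM is made. Depth limits CD36 and ACSL6, and intervals cover the spread between these libraries only.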
